A study of Mus musculus with 4 samples.

Results

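The genes described here are 7 genes of fatty acid and retinoid handling, Fabp4, Rbp7, Cd36, Gpihbp1, Lpl, Pparg and Fabp5, taken by their symbols from the 31053 genes listed in single-cell count tables of a salivary gland of the mouse, the submandibular gland. All 7 were found, each under 1 gene identifier. They had been grouped under the heading of capillary genes, and that heading was checked against the data: in these cells Lpl belonged to fibroblast-like cells, Cd36 was higher in arterial-like than in capillary-like cells, and Fabp4 and Fabp5 were no higher in capillary-like than in venous-like cells. Rbp7 and Gpihbp1 were higher in capillary-like than in arterial-like and venous-like cells of every library, but with cells clustered at a finer resolution their log2 ratio of capillary-like to arterial-like level went from 0.89 to 0.10 and from 0.98 to 0.52.

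Every library came from female C57BL6/J mice and was measured with 10x Genomics single-cell RNA sequencing after EpCAM-positive epithelium and Ter119-positive erythrocytes had been depleted with magnetic beads and dead cells had been removed, to enrich for stroma. In the 2 deligated libraries, from mice of 14 weeks, a metal clip had closed the main ducts for 14 days and had been off for 5 days at harvest. The 2 homeostatic libraries came from mice of 12 weeks without surgery, so that age and surgery cannot be told apart, and the labels describe no sham-operated group. The protocols speak of 2 glands and name the sublingual beside the submandibular gland, without the number of animals behind a library. P-values therefore measure the spread between these libraries, which may be technical in part.

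Capillaries of fat-burning tissues take up fatty acids in steps that these genes serve. Lipoprotein lipase, the product of Lpl, splits the triglycerides of circulating lipoproteins, is made by cells outside the vessel and is carried across the endothelium by GPIHBP1, which holds it on the capillary wall. CD36 is a membrane receptor that aids the entry of long-chain fatty acids, FABP4 and FABP5 bind fatty acids inside the cell, and RBP7 is an intracellular retinoid-binding protein of the same protein family. Pparg encodes the nuclear receptor PPAR gamma, which pairs with RXR on paired AGGTCA-type sites, and Fabp4, Cd36, Gpihbp1, Lpl and Rbp7 are known targets of it in fat cells or endothelium.

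In GENCODE M21 (GRCm38), the binding proteins are Fabp4 (ENSMUSG00000062515, chr3:10204088-10208576, minus strand), Fabp5 (ENSMUSG00000027533, chr3:10012548-10016607, plus strand) and Rbp7 (ENSMUSG00000028996, chr4:149449687-149454978, minus strand). The lipase and its carrier are Lpl (ENSMUSG00000015568, chr8:68880491-68907448, plus strand) and Gpihbp1 (ENSMUSG00000022579, chr15:75596628-75599481, plus strand). The uptake receptor is Cd36 (ENSMUSG00000002944, chr5:17781690-17888801, minus strand) and the nuclear receptor Pparg (ENSMUSG00000000440, chr6:115360951-115490399, plus strand). Values below count UMIs of whole genes, not a site within them.

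The stretches just upstream of the start sites are shown for the genes on which RefSeq (GRCm38.p6) had an entry in the promoter table used here, because Pparg is itself 1 of the genes and its receptor binds known letters. Entries were matched for 3 of the 7 genes, Rbp7, Cd36 and Pparg. Both strands of the 250 bases before each start were searched for the half-site AGGTCA and for 2 half-sites 1 base apart, AGGTCANAGGTCA. Capitals mark a half-site on either strand, and positions are counted back from the start, with -1 the base before it.
Rbp7 (chr4:149454969-149455218, minus strand): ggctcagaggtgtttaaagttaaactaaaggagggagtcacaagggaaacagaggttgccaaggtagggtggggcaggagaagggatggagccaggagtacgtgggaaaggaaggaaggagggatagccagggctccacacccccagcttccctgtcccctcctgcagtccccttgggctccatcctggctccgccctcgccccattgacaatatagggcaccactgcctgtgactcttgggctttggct
Cd36 (chr5:17835897-17836146, minus strand): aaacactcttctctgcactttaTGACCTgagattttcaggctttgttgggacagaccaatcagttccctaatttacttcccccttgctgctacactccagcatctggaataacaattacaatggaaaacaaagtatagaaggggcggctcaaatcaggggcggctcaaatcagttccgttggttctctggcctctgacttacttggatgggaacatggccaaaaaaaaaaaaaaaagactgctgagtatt
Pparg, upstream start (chr6:115360894-115361143, plus strand): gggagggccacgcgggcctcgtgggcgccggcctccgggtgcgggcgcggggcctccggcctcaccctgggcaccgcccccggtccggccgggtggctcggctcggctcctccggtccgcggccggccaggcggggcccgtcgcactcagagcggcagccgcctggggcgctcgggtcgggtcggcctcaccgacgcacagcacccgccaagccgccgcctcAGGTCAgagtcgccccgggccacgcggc
Pparg, second start (chr6:115362099-115362348, plus strand): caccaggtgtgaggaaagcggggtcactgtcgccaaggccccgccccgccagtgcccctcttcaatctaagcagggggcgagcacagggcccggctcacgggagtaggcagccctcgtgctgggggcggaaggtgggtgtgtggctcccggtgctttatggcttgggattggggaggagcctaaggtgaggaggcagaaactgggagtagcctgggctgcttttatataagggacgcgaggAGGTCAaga

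The Cd36 window held 1 half-site, on the opposite strand with its first letter at -228, and the Pparg windows shown held 1 each, at -28 and at -9. Neither Rbp7 nor the remaining Pparg window held one, and no window held the paired form. Of 32851 windows of this length in the table, 14.0% held the half-site and 0.0335% the paired form, so that a half-site is common in such windows and says nothing here about binding.

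After filters, 33695 cells remained, between 4357 and 10900 a library, from totals of 35662241 to 53898793 UMIs (unique molecular identifiers, counts of captured RNA molecules). A kept cell had a median of 6013 and 5155 UMIs after deligation and of 2854 and 2708 in homeostasis. Endothelial-like cells numbered 1871, 3112, 3504 and 3428, in the order deligated 1 and 2 and homeostatic 1 and 2 that is kept below, and all 11 endothelial markers were detected in each library. Within them, capillary-like cells made up 69.8% to 72.1%, arterial-like cells 12.3% to 15.1% and venous-like cells 7.79% to 10.8% of a library's endothelial cells. Epithelial-like cells remained at 1.06% and 1.83% of the kept cells in the deligated and at 30.3% and 32.0% in the homeostatic libraries, and macrophage-like cells at 0.849% and 1.25% and at 8.97% and 8.95%. The part of these differences in the results below was not tested. Of 7 capillary markers, Rgcc, Btnl9, Cd300lg, Car4 and Kdr were higher in capillary-like than in arterial-like and venous-like cells of each library, while Timp4 and Adgrf5 were not. Capillary-like subclusters were named from these markers, so this is no independent check of the name. Between 14 and 54 cell barcodes were shared by any pair of libraries, at most 0.482% of the smaller one. The 7 genes were left out of the genes used for clustering. Levels are CPM, a gene's UMIs scaled to equal totals, from the summed UMIs of a cell class in a library.

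Fabp4 and Rbp7 were endothelial genes in this gland. Of all Fabp4 UMIs, 93.0% to 97.6% a library lay in endothelial-like cells, and of all Rbp7 UMIs 93.2% to 98.8%. In endothelial-like cells the Fabp4 level was 5494, 6868, 7981 and 7838 CPM. In NK/innate lymphoid-like cells, which should lack the gene, it was 18.3, 79.2, 83.9 and 23.0 CPM, a level that free RNA may give. Free RNA itself was not estimated, and other classes reached higher values in the deligated libraries. Epithelial-like cells had 95.1 to 127, macrophage-like cells 58.1 to 151 and B cell-like cells 43.3 to 181 CPM there. Mural-like cells, the pericytes and smooth muscle around vessels, had 429, 625, 728 and 540 CPM of Fabp4, above the NK/innate lymphoid-like level in every library. The share of them with a Fabp4 UMI at 1000 UMIs a cell was 24.7% to 35.2%, against 1.28% to 7.17% in NK/innate lymphoid-like cells. Their summed endothelial markers were 293 to 794 CPM, against 14770 to 16210 CPM in endothelial-like cells, and the part of endothelial RNA in the mural-like Fabp4 level was not tested. Rbp7 in mural-like cells, at 10.5, 35.8, 14.6 and 6.02 CPM, lay near its level in NK/innate lymphoid-like cells of 8.35, 13.0, 16.9 and 4.72 CPM. Erythroid-like cells, only 11, 57, 21 and 29, had 3357 to 5351 CPM of Fabp4 and 663 to 1186 CPM of Rbp7, and the part of endothelial RNA in this was not tested.

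Gpihbp1 UMIs likewise lay mostly in endothelial-like cells, 94.7% to 98.3% a library. Its level there was 657, 924, 752 and 754 CPM, against 2.66, 9.92, 8.89 and 1.62 CPM in NK/innate lymphoid-like cells. Other stromal classes were near the latter level: mural-like cells had 3.50, 16.1, 3.24 and 6.02 CPM and fibroblast-like cells 1.06, 7.73, 3.39 and 0.510 CPM.

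Lpl was a fibroblast gene here. Its level in fibroblast-like cells was 3200, 2673, 1590 and 1623 CPM, and 60.5% to 96.4% of a library's Lpl UMIs came from them. Macrophage-like cells followed with 296, 446, 345 and 363 CPM, where the deligated values rest on 37 and 98 cells, and mural-like cells with 176, 211, 207 and 188 CPM. Endothelial-like cells had 3.85, 9.57, 2.83 and 1.83 CPM, beside 3.73, 8.01, 2.91 and 0.885 CPM in NK/innate lymphoid-like cells of the same libraries. The share of endothelial-like cells with an Lpl UMI at 1000 UMIs a cell, 0.430%, 0.972%, 0.263% and 0.119%, likewise lay near the share of NK/innate lymphoid-like cells, 0.464%, 0.884%, 0.201% and 0.102%. The values of the classes were furthest apart, by ratio, in homeostatic replicate 2, and the part of free RNA in the endothelial-like Lpl level was not tested. Most Lpl UMIs and most Gpihbp1 UMIs of a library lay in different classes. The plot of Lpl by class shows both measures.

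**Figure D1:**
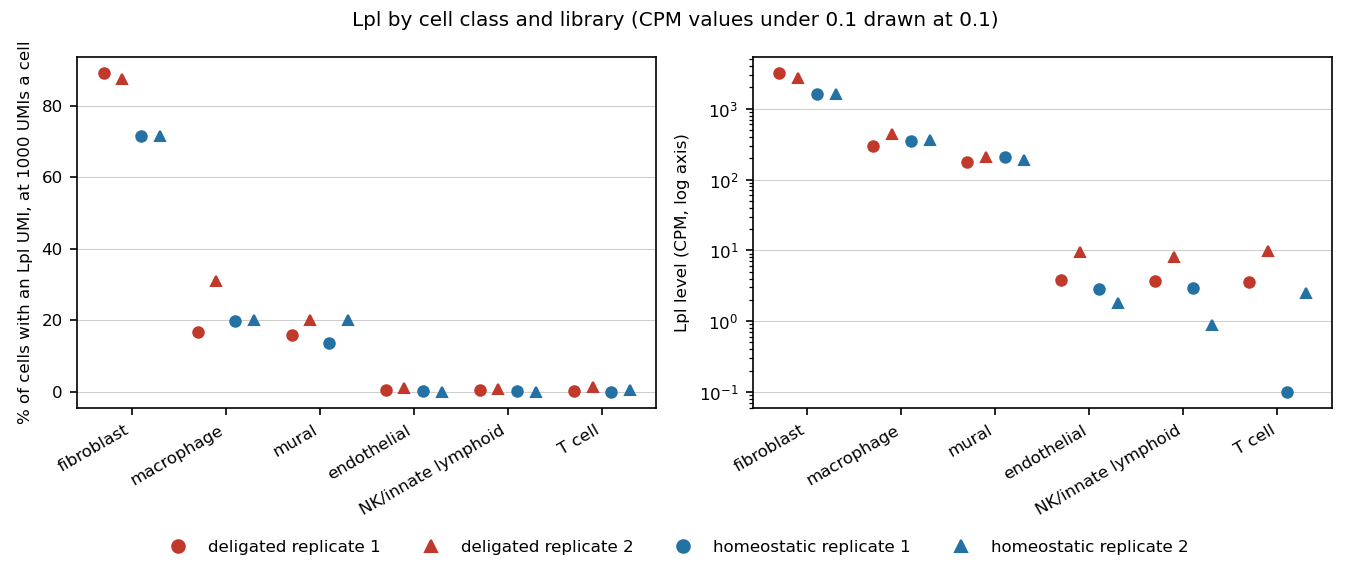
Share of cells with an Lpl UMI after thinning to 1000 UMIs a cell (left, percent) and Lpl level (right, CPM, log axis) by cell class; each point is 1 library, red deligated and blue homeostatic. Fibroblast-like cells stand highest in all 4 libraries, and endothelial-like cells lie with the NK/innate lymphoid-like and T cell-like cells.

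Cd36 was shared between vessels and macrophages. It stood at 256, 366, 419 and 386 CPM in endothelial-like cells, at 105, 338, 375 and 301 CPM in macrophage-like cells and at 119, 160, 189 and 185 CPM in mural-like cells. Fibroblast-like cells had 0, 2.32, 0.969 and 1.02 CPM, no higher than the highest NK/innate lymphoid-like value in a range of 0.710 to 3.01 CPM. The macrophage-like value of deligated replicate 1 was the lowest of its class and rests on 37 cells.

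Pparg, the receptor gene, was detected at low levels in several stromal classes. Endothelial-like cells had 21.9, 23.6, 46.6 and 47.9 CPM of it, and it stood at 24.9, 24.0, 55.0 and 70.7 CPM in mural-like cells. Macrophage-like cells had 5.81, 8.61, 25.6 and 33.0 CPM, and fibroblast-like cells 3.83, 5.72, 15.5 and 24.0 CPM. NK/innate lymphoid-like cells stood at 0 to 0.437 CPM, below the endothelial-like, mural-like and fibroblast-like levels of every library. The macrophage-like values rest on 1 and 4 UMIs in the deligated libraries, so that no level is read from the first, and on 84 and 102 UMIs in the homeostatic libraries. In the endothelial-like, mural-like and fibroblast-like classes both deligated libraries were below both homeostatic libraries, a description without the share over all genes.

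Fabp5 was the least endothelial of the fatty acid-binding genes. Endothelial-like cells had 298, 282, 409 and 406 CPM. Schwann-like cells, the glia of peripheral nerves, had 576, 643, 646 and 423 CPM, from 28 to 62 cells a library, and were above the endothelial-like cells of every library. B cell-like cells ranged from 183 to 902 CPM and epithelial-like cells from 149 to 385 CPM, both with few cells in at least 1 library. NK/innate lymphoid-like cells had 4.97 to 12.7 CPM.

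**Figure D2:**
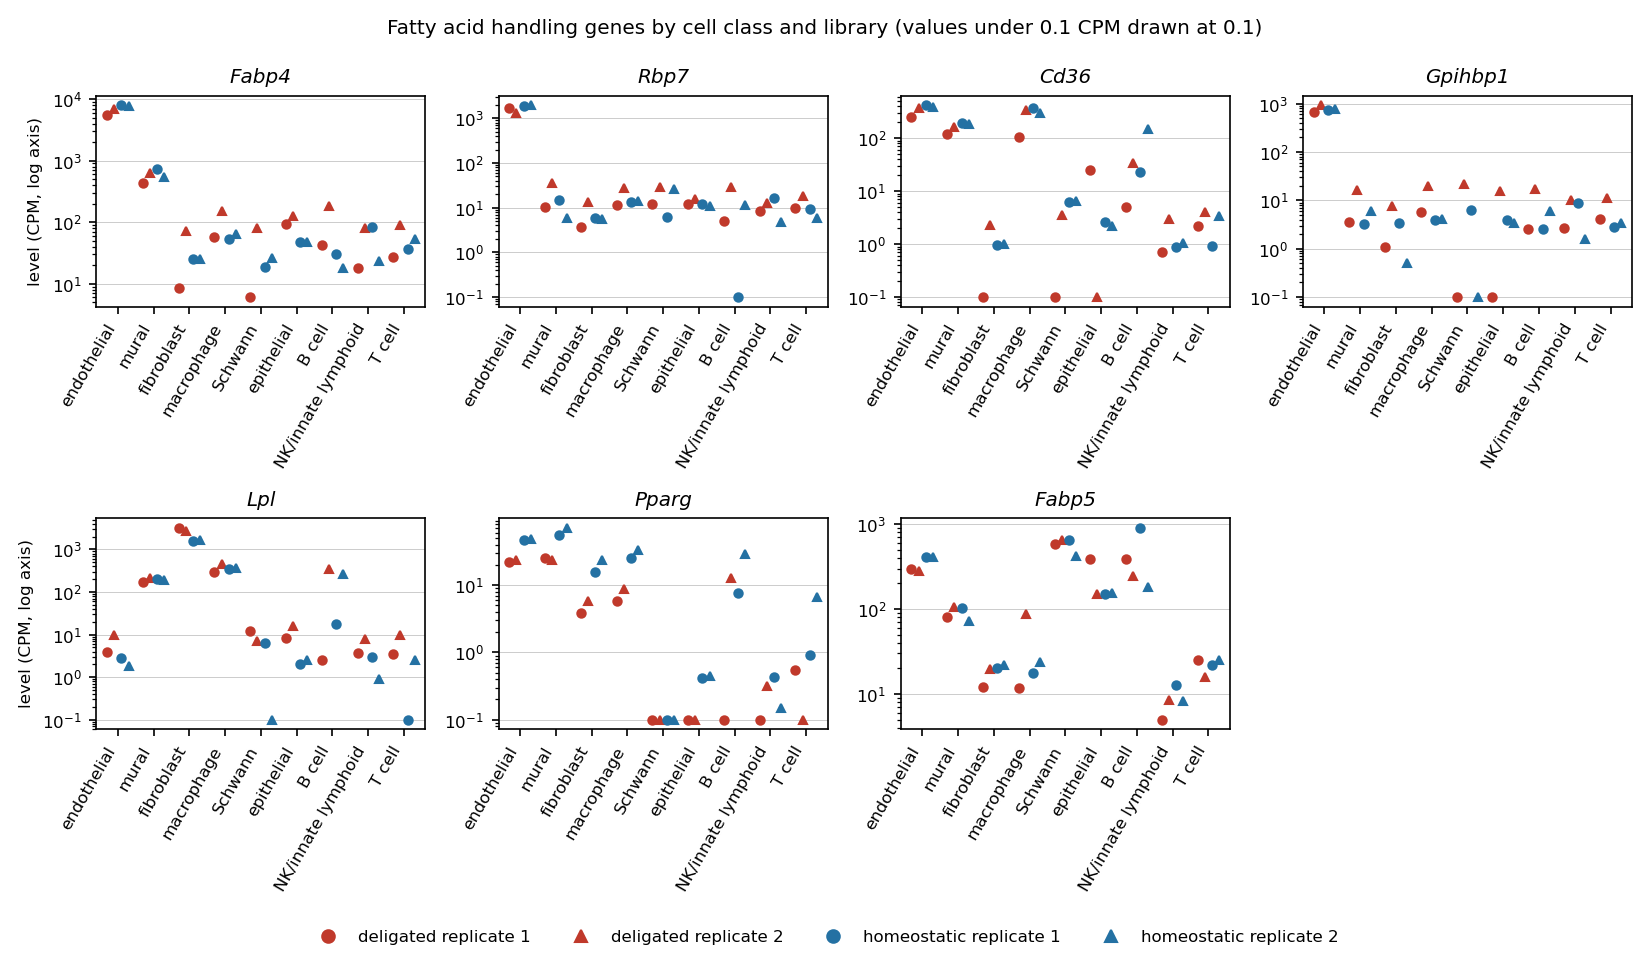
Level of the 7 genes (CPM, log axis) by cell class; each point is 1 library with at least 20 cells of the class, red deligated and blue homeostatic, circles replicate 1 and triangles replicate 2. Fabp4, Rbp7 and Gpihbp1 stand highest in endothelial-like cells, Lpl in fibroblast-like cells, and Fabp5 is spread over Schwann-like, endothelial-like and B cell-like cells.

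Markers of fat cells were counted because several of the 7 genes are best known from adipose tissue. Of 8 adipocyte markers, Adipoq, Lep, Cfd and Adrb3 had no UMI in endothelial-like cells of any library. The list summed to 0.117 to 0.440 CPM there and to 0 to 0.510 CPM in fibroblast-like cells. In mural-like cells it summed to 18.1 to 21.03 CPM, and Adipoq, Cidec, Retn, Lep, Cfd and Adrb3 were at 0 in all 4 libraries. The sum came from Plin4, a lipid droplet coat protein, alone in deligated replicate 1 and homeostatic replicate 2, and from Plin4 and Plin1 in the other libraries. It was of the size of the Pparg level in deligated mural-like cells, and its part in the mural-like values was not tested.

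Among endothelial subtypes, Rbp7 and Gpihbp1 were higher in capillary-like than in arterial-like and venous-like cells. Rbp7 was at 2006, 1580, 2231 and 2282 CPM in capillary-like cells, at 1124, 941, 1144 and 1143 CPM in arterial-like cells and at 799, 586, 834 and 858 CPM in venous-like cells. The log2 ratio of capillary-like to arterial-like level was 0.89 ± 0.12 (SD, n = 4 libraries), and that to venous-like cells 1.40 ± 0.05. The order was the same in each library, but with cells clustered at the finer resolution of 2.0 the first ratio was 0.10. Arterial-like subcluster 4, with 911 cells, itself passed the capillary markers Rgcc, Btnl9 and Car4. Its homeostatic means were 1578 CPM of Rbp7 and 649 CPM of Gpihbp1. Arterial-like subcluster 10 had 561 and 129 CPM and subcluster 14 had 1051 and 251 CPM. Gpihbp1 was at 743, 1016, 879 and 864 CPM in capillary-like, 434, 496, 413 and 429 CPM in arterial-like and 400, 710, 327 and 359 CPM in venous-like cells. Its ratios were 0.98 ± 0.14 and 1.02 ± 0.41, the first 0.52 at resolution 2.0. The venous-like value of deligated replicate 2 stood above its 3 companions, so that the spread of the second ratio is wide. Venous-like cells joined subcluster 6, with Gpihbp1 means of 720 CPM deligated and 449 CPM homeostatic, and subcluster 11, with 81.9 and 49.6 CPM. Subcluster 6 held 109, 219, 216 and 188 cells and subcluster 11 held 93, 81, 74 and 79. The part of this unequal mix in the venous-like values was not tested. Interferon-responding-like cells had Gpihbp1 at 892, 1274, 991 and 798 CPM, overlapping the capillary-like range. Their means, 1083 CPM deligated and 894 CPM homeostatic, were above the capillary-like means of 880 and 872 CPM. Their Rbp7 means were 1532 and 2063 CPM, against 1793 and 2257 CPM in capillary-like cells.

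Cd36 ran the other way. Arterial-like cells had 553, 898, 1039 and 948 CPM, capillary-like cells 232, 330, 331 and 315 CPM and venous-like cells 115, 168, 212 and 231 CPM. The log2 ratio of capillary-like to arterial-like level was -1.48 ± 0.18, and at resolution 2.0 it was -1.02. The order arterial-like, capillary-like, venous-like held in each of the 4 libraries, and the arterial-like range did not overlap the others in either group. Homeostatic Cd36 means were 1112, 851 and 856 CPM in arterial-like subclusters 4, 10 and 14.

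Fabp4 and Fabp5 were lower in arterial-like than in capillary-like and venous-like cells of each library. Fabp4 was at 4014, 5727, 6162 and 6114 CPM in arterial-like cells, 5607, 6980, 8214 and 7962 CPM in capillary-like cells and 6294, 7716, 9617 and 9395 CPM in venous-like cells. Its log2 ratio of capillary-like to arterial-like level was 0.39 ± 0.08, with overlapping ranges in the deligated group. The ratio to venous-like level was -0.19 ± 0.05, a small difference in the venous direction in every library. Fabp5 was at 149, 161, 251 and 187 CPM in arterial-like, 321, 297, 435 and 430 CPM in capillary-like and 333, 313, 483 and 554 CPM in venous-like cells. Capillary-like cells had more Fabp5 than arterial-like cells (log2 ratio 0.99 ± 0.19), while their ratio to venous-like cells was -0.16 ± 0.14, with overlapping ranges in the deligated group.

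Pparg differed little between arterial-like and capillary-like cells. It was at 20.7, 30.2, 47.4 and 59.9 CPM in arterial-like, 23.9, 23.1, 50.1 and 48.3 CPM in capillary-like and 12.6, 19.5, 30.3 and 28.8 CPM in venous-like cells. The ratio of capillary-like to arterial-like level, -0.12 ± 0.29, was within its spread, and that to venous-like cells was 0.63 ± 0.29. All of these subtype levels are descriptions, since the genes had been chosen for a capillary pattern. The marker lists of the subtypes hold none of the 7 genes.

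**Figure D3:**
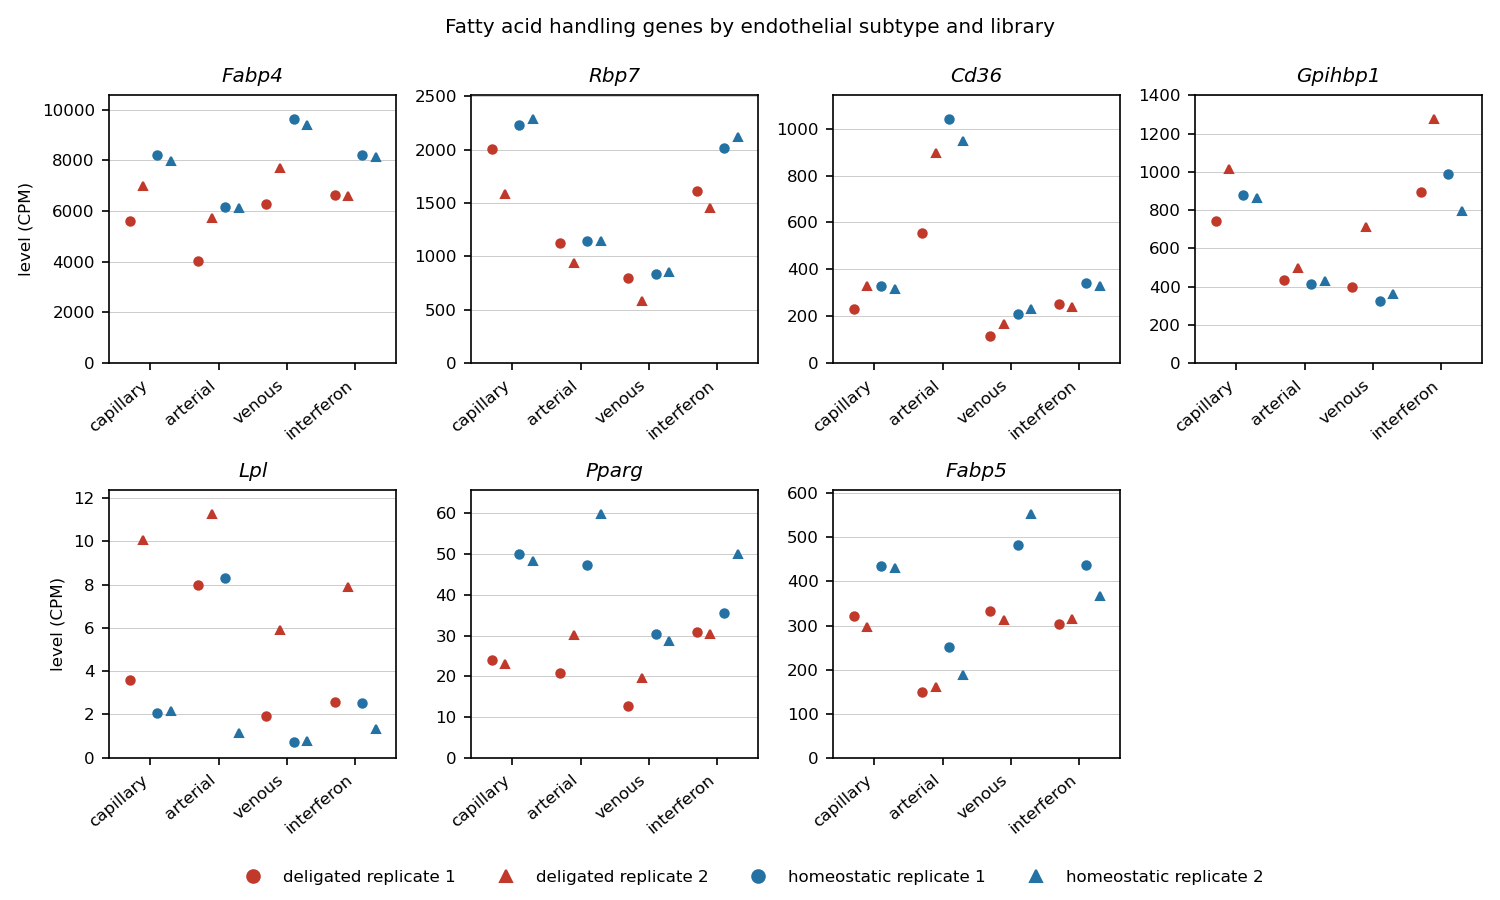
Level of the 7 genes (CPM, linear axis from 0) in 4 endothelial subtypes; each point is 1 library, red deligated and blue homeostatic, circles replicate 1 and triangles replicate 2. Rbp7 and Gpihbp1 are high in capillary-like and interferon-responding-like cells, Cd36 is highest in arterial-like cells, and Pparg is lower in the deligated libraries of each subtype.

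The capillary-like cells were themselves uneven. They fell into 10 subclusters, of which subclusters 9 and 12, 800 cells, were almost wholly homeostatic. Subcluster 0 was led by transcripts of secreted salivary products such as Scgb1b27 and Car6, and subclusters 2 and 8 by early response genes such as Fos and Egr1. Over the subclusters with at least 20 cells, mean homeostatic levels ranged from 2478 to 10668 CPM for Fabp4, from 761 to 3230 CPM for Rbp7 and from 292 to 1115 CPM for Gpihbp1. Cd36 ranged from 272 to 373 CPM. Subcluster 13, led by Penk and Pacsin1, combined the highest homeostatic Rbp7 mean (3230 CPM) with the lowest Gpihbp1 mean (292 CPM), so that the pair most typical of capillary-like cells did not move together there.

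**Figure D4:**
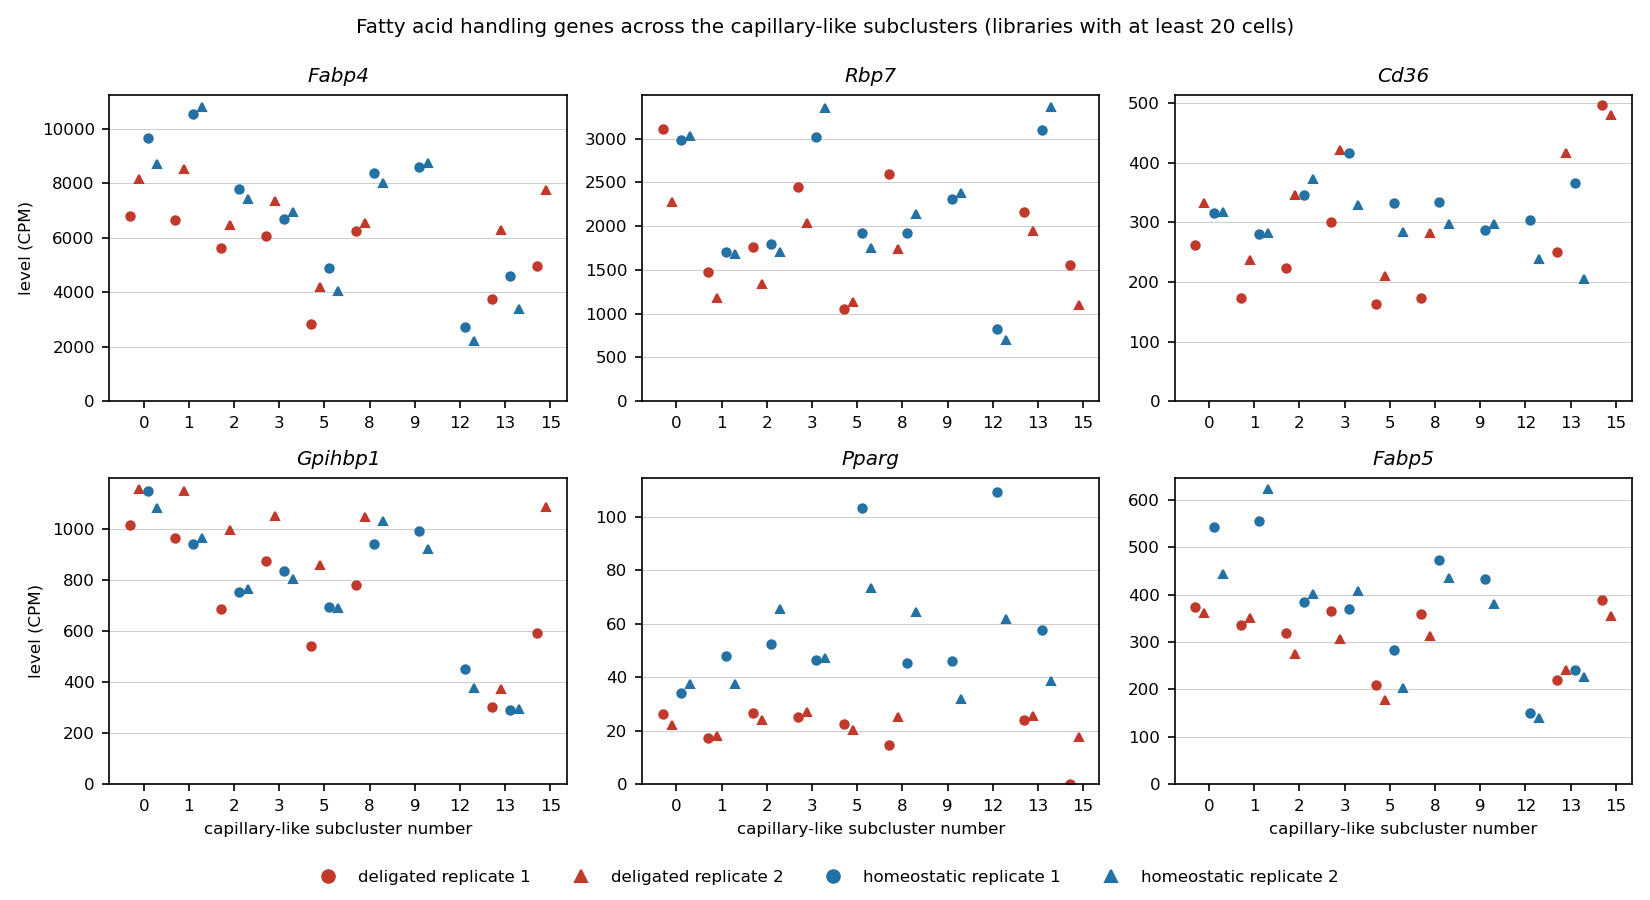
Level of 6 of the genes (CPM) in the 10 capillary-like subclusters; each point is 1 library with at least 20 cells there, red deligated and blue homeostatic. Subclusters 9 and 12 have no deligated points, Cd36 stays between 163 and 497 CPM, and Pparg is lower in the deligated than in the homeostatic points of each shared subcluster.

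Within single capillary-like cells thinned to 1000 UMIs, 35.3% to 37.4% had UMIs of 3 of the 7 genes and none had all 7. Over these cells Pearson's r between 2 of the genes reached at most 0.241, for Fabp4 with Fabp5 (0.193 to 0.241 in the 4 libraries). In counts this sparse such weak values are no finding.

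Genes whose level followed 6 of the genes most closely were sought over 40 sums of 11 classes and subtypes, among 9331 genes, as a description of points that share libraries and cells. Closest to Rbp7 were Clic5, Flt1 and Cyyr1 (r = 0.993, 0.992 and 0.991), to Gpihbp1 Cd300lg, Emcn and Rbp7 (0.995, 0.990 and 0.989) and to Fabp4 Adgrf5, Lmcd1 and Cavin2 (0.984, 0.981 and 0.981). Cd300lg and Adgrf5 are on the list of capillary markers used for naming. Closest to Cd36 were Plekho1, Nes and Sipa1l2 (0.969, 0.957 and 0.944), to Fabp5 Mgll, Tspan12 and Pnkd (0.962, 0.951 and 0.946) and to Pparg Fnip2, Apbb2 and Mertk (0.947, 0.942 and 0.938). Lpl ran against Fabp4, Rbp7 and Gpihbp1 over the same points (r = -0.444, -0.512 and -0.510).

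The comparison of deligated with homeostatic libraries asked which of these genes differ in the regenerating gland, class by class, on summed UMIs with edgeR's quasi-likelihood test. In capillary-like cells Pparg, Fabp5 and Fabp4 fell, and Lpl was called higher from a low level. That is 4 of the 7 genes where 34.3% of 12381 tested genes were called, so the count alone says little about these genes. It was 6 without deligated replicate 1, where 49.1% of all genes were called, and 2 without homeostatic replicate 1 or 2, where 16.7% and 16.6% were, so that these counts moved with the share over all genes. The median log2 fold change of the 7 was -0.31, against 0.00 over all tested genes.

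Pparg had the lowest adjusted p of the 7 in capillary-like cells without the correction for intron length described below, but not with it. In capillary-like cells its 23.9 and 23.1 CPM in the deligated libraries compared with 50.1 and 48.3 CPM in the homeostatic libraries, a log2 fold change of -1.05 ± 0.10 (SE, n = 2 against 2) with an edgeR adjusted p of 0.000364. In endothelial-like cells as a whole it fell by 1.04 ± 0.09 (edgeR adjusted p = 0.000409). The groups did not overlap in the 4 named subtypes with at least 20 cells in each library, a description without the share over all genes. Pparg fell in arterial-like cells too, by 1.06 ± 0.21 (edgeR adjusted p = 0.00722), where 15.2% of genes were called and Pparg was the only 1 of the 7. That call was lost with DESeq2's test (-1.07, adjusted p = 0.0688) and at 1000 UMIs a cell (-0.28, edgeR adjusted p = 0.758). In venous-like cells the log2 fold change of -0.88 ± 0.26 did not pass (edgeR adjusted p = 0.0501), but it did with the replicate block (-0.89, 0.0437), the stricter cell filter (-0.82, 0.0383), resolution 2.0 (-1.14, 0.0195), no filter on low counts (-0.84, 0.0167) and 1000 UMIs a cell (-2.06, 0.0209).

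The fall of Pparg extended beyond vessels. In fibroblast-like cells, where 27.1% of genes were called, it fell by 1.97 ± 0.33 (edgeR adjusted p = 0.00132), from 32 and 47 UMIs in the homeostatic libraries and 18 and 37 UMIs in deeper deligated ones. In mural-like cells, where 8.24% were called, it fell by 1.39 ± 0.24 (edgeR adjusted p = 0.00383), a call lost at 1000 UMIs a cell (-1.02, 0.277). Tests of the difference of the change between endothelial-like and fibroblast-like cells (edgeR adjusted p = 0.143) and between endothelial-like and mural-like cells (edgeR adjusted p = 0.708) did not pass. The first test called 5.21% and the second 0.483% of all genes.

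The Pparg change was smaller with a correction for intron length. The matrix headers name another Cell Ranger version for each group, and log2 fold changes fell with total intron length over all genes (Spearman's rho = -0.43 in capillary-like and -0.53 in fibroblast-like cells). Pparg holds 126.5 kb of intron and overlaps the antisense gene Gm44079. With the trend on intron length removed, its log2 fold change was -0.43 in capillary-like cells (edgeR adjusted p = 0.0189), -0.40 in endothelial-like cells (0.0175) and -1.19 in fibroblast-like cells (0.0294). In arterial-like and mural-like cells it was -0.47 and -0.79 and no longer passed, nor did it without homeostatic replicate 2, at -0.89 (0.0508) and -1.16 (0.0946). Version and group cannot be told apart.

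Fabp5 and Fabp4 fell modestly in vessels, and both are short genes. Fabp5 in capillary-like cells was at 321 and 297 CPM after deligation and 435 and 430 CPM in homeostasis, a log2 fold change of -0.47 ± 0.10 (edgeR adjusted p = 0.0116). In venous-like cells it fell by 0.68 ± 0.15 (edgeR adjusted p = 0.0110), and in arterial-like cells the value of -0.50 ± 0.15 did not pass (0.0522). The arterial-like value was called with the intron trend removed (-0.65, edgeR adjusted p = 0.0229), the stricter cell filter (-0.56, 0.0216), doublet-scored cells kept (-0.52, 0.0219), the 7 genes kept for clustering (-0.57, 0.0305) and no filter on low counts (-0.49, 0.00813). Fabp4 fell in capillary-like cells by 0.35 ± 0.11 (edgeR adjusted p = 0.0444) and in venous-like cells by 0.44 ± 0.13 (0.0439). The capillary-like call was lost with the stricter cell filter (-0.32, edgeR adjusted p = 0.0617), no filter on low counts (-0.35, 0.0639) and the replicate block (-0.36, 0.108), and the venous-like call with the block (-0.45, 0.0738) and at 1000 UMIs a cell (-0.41, 0.0937). In arterial-like cells Fabp4, at -0.34, did not pass (edgeR adjusted p = 0.135), but it did with the intron trend removed (-0.51, 0.0438) and with no filter on low counts (-0.34, 0.00549). In all endothelial-like cells Fabp4, at -0.34 ± 0.11, did not pass (0.0603), while Fabp5 fell by 0.47 ± 0.10 (0.0128). DESeq2's test called this Fabp4 value (-0.32, adjusted p = 0.0302), as did edgeR with the intron trend removed (-0.58, 0.0130), 1000 UMIs a cell (-0.40, 0.0138), resolution 2.0 (-0.36, 0.0432) and no filter on low counts (-0.33, 0.0462). Fabp5 was 1 of 3 genes called in endothelial-like cells, beside Lpl and Pparg, where 34.7% of 13277 tested genes were.

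For both genes the deligated and homeostatic libraries did not overlap in any of the 3 vessel types. The share of all genes without overlap is not given here, so this separation is not read as a result. Without either homeostatic library the calls were lost at much the same size: Fabp5 in capillary-like cells was at -0.48 and -0.47 (edgeR adjusted p = 0.125 and 0.134) and Fabp4 at -0.35 and -0.37 (0.276 and 0.246). With the intron trend removed both were larger, at -0.64 and -0.59 in capillary-like cells, since shorter genes lie on the higher side of that trend. Outside vessels Fabp5 did not pass in fibroblast-like cells (-0.35 ± 0.25, edgeR adjusted p = 0.342) or mural-like cells (0.05 ± 0.20, 0.924).

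Cd36 fell in venous-like cells, where 13.4% of genes were called and 3 of the 6 tested genes here, Fabp4, Cd36 and Fabp5, were. Its 115 and 168 CPM compared with 212 and 231 CPM, a log2 fold change of -0.65 ± 0.17 (edgeR adjusted p = 0.0316). The call was lost without homeostatic replicate 1 (-0.72, edgeR adjusted p = 0.198) and without homeostatic replicate 2 (-0.58, 0.317), with DESeq2's test (-0.63, adjusted p = 0.0957) and at 1000 UMIs a cell (-0.63, 0.125). In arterial-like cells, where its level was highest, it was at -0.46 ± 0.18 and did not pass (0.113) except with no filter on low counts (-0.46, 0.00383). Its arterial-like value was -0.19 and -0.79 without deligated replicates 1 and 2. In capillary-like cells it did not pass (-0.19 ± 0.14, 0.315), and it was -0.0012 and -0.40 without deligated replicates 1 and 2. Cd36 holds 103.5 kb of intron, and with the trend removed its values were 0.03 in arterial-like, 0.32 in capillary-like and -0.16 in venous-like cells, none of them called.

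Gpihbp1 and Rbp7 passed in no class or subtype by edgeR as first fitted, and some of their values passed under other settings. Rbp7 in capillary-like cells was at -0.31 ± 0.15 (edgeR adjusted p = 0.145), with an interval from -0.66 to 0.04 at 95%, although both deligated libraries were below both homeostatic ones. It was called at resolution 2.0 (-0.45, edgeR adjusted p = 0.0422), and it was -0.55 and -0.09 without deligated replicates 1 and 2. Gpihbp1 in capillary-like cells was at 0.02 ± 0.13 (edgeR adjusted p = 0.921), with an interval from -0.28 to 0.32. Its sign changed with the library left out, at 0.19 without deligated replicate 1 and -0.15 without deligated replicate 2. In venous-like cells Gpihbp1 was higher in both deligated libraries, 400 and 710 CPM against 327 and 359 CPM, at 0.68 ± 0.21 (0.0614). This value was called by DESeq2 (0.70, adjusted p = 0.0347) and by edgeR with the replicate block (0.64, 0.0360), the stricter cell filter (0.72, 0.0298), 1000 UMIs a cell (0.71, 0.0264) and no filter on low counts (0.72, 0.000106). It was 1.00 and 0.28 without deligated replicates 1 and 2, and 0.61 and 0.76 without homeostatic replicates 1 and 2. Such fits take their spread from 1 group alone, so only their sizes are given. The change of Gpihbp1 differed between venous-like and capillary-like cells by 0.66 ± 0.10 (edgeR interaction within libraries, adjusted p = 0.000165), the 1 gene of the 7 called in that test, which called 0.46% of all genes. The arterial-like against capillary-like test, with 0.635% of genes called, and the arterial-like against venous-like test, with 0.548%, called 0 of the 7 by edgeR. At an unadjusted p under 0.05 the former had Rbp7 and Cd36 and the latter Gpihbp1, and no other tool was run on these differences. Without homeostatic replicate 1 the difference of Gpihbp1 between venous-like and capillary-like cells was 0.60 (edgeR adjusted p = 0.359), without homeostatic replicate 2 it was 0.75 (0.0983), and both were no longer called. Without deligated replicates 1 and 2 it was 0.79 and 0.43.

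Lpl rose in its main source. In fibroblast-like cells its 3200 and 2673 CPM after deligation compared with 1590 and 1623 CPM in homeostasis, a log2 fold change of 0.93 ± 0.13 (edgeR adjusted p = 0.000511), or 1.83-fold by the means. The share of fibroblast-like cells with an Lpl UMI at 1000 UMIs a cell was 89.1% and 87.4% against 71.6% and 71.4%. The rise passed in all 14 alternatives run, with values between 0.76 and 1.11. In mural-like cells Lpl was at -0.05 ± 0.16 (0.899), with an interval from -0.40 to 0.29.

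Lpl was called higher also in endothelial-like cells (1.54 ± 0.45, edgeR adjusted p = 0.0404), capillary-like cells (1.69 ± 0.48, 0.0321) and NK/innate lymphoid-like cells (1.77, 0.0383), the last the only 1 of 5 tested genes called where 40% of all genes were. All 3 classes hold little Lpl beside fibroblast-like cells. Fibroblast-like cells were 8.24% and 9.51% of the kept cells in the deligated libraries and 2.99% and 2.76% in the homeostatic libraries, and the part of free fibroblast RNA in these 3 calls was not tested. The value in endothelial-like cells was 0.81 without deligated replicate 2, and the call was lost without homeostatic replicate 1 (1.86, edgeR adjusted p = 0.0776) or 2 (1.27, 0.169) or with the replicate block (1.43, 0.0669), that in capillary-like cells without deligated replicate 2 (0.82, 0.0546) or with no filter on low counts (1.70, 0.0876), and that in NK/innate lymphoid-like cells without deligated replicate 2 (1.09, 0.160) or homeostatic replicate 2 (1.17, 0.195), with the block (1.75, 0.0901), DESeq2's test (1.75, adjusted p = 0.0673) and the intron trend removed (1.74, 0.0510).

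Fabp4, Rbp7 and Gpihbp1 in fibroblast-like cells moved with single libraries. Fabp4 there was at 8.50 and 71.0 CPM against 25.2 and 25.0 CPM, with the deligated libraries on either side of the homeostatic ones, and its log2 fold change of 0.73 ± 0.68 did not pass (edgeR adjusted p = 0.458). Without deligated replicate 2 it was -1.44 and without deligated replicate 1 it was 1.52, both called by edgeR, where 38.2% and 42.2% of all genes were. The same deligated replicate 2 had 2453 CPM of erythroid markers in its fibroblast-like cells against 56.5 to 815 CPM in the other 3 libraries. In T cell-like cells 0 of the 3 tested genes were called by edgeR, where 23.7% of all genes were. There 1 of the 3 had an unadjusted p under 0.05, and DESeq2 called 0.

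**Figure D5:**
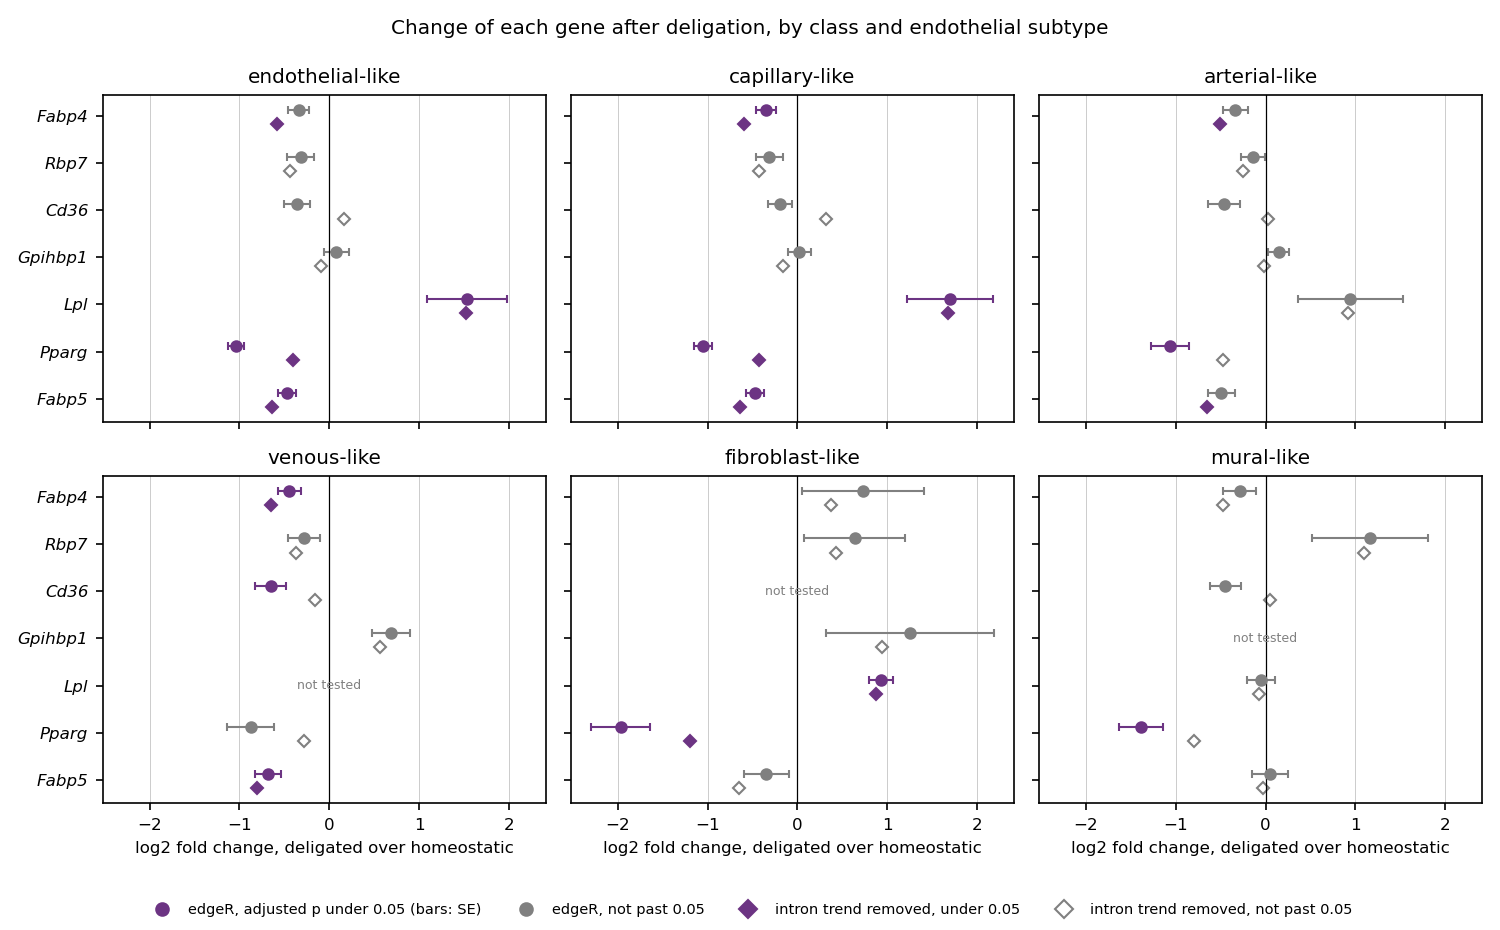
Log2 fold change (deligated over homeostatic) of the 7 genes in 6 classes and subtypes; circles give the edgeR estimate with bars of 1 SE, diamonds the estimate with the intron-length trend removed, and filled purple marks an adjusted p under 0.05. Pparg lies left of 0 in each panel and moves toward 0 when the trend is removed, while Lpl in fibroblast-like cells lies at 0.93 and, with the trend removed, at 0.88.

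Other genes of the pathway were counted in endothelial-like cells from lists of 64 genes that leave the 7 out. Of 55 tested, 10 rose and 7 fell, 30.9% against the 34.7% called among all genes, with a median log2 fold change of 0.09 against -0.01. With the intron trend removed 15 rose and 4 fell, where 30% of all genes were called. Without homeostatic replicate 1 the counts were 0 and 2, without homeostatic replicate 2 they were 0 and 3, and without deligated replicate 1 or 2 they were 17 and 11 or 23 and 14. The share of all genes called was 13.1% and 13.2% in the former pair of fits and 55% and 55.6% in the latter. The transcription factors and their partners had the most calls, 8 of 12, 4 in each direction. With the intron trend removed 4 of them rose and 2 fell, and DESeq2 called 5. Of 14 genes of activation and oxidation edgeR called 0, with 4 at an unadjusted p under 0.05 and 1 called by DESeq2. With the intron trend removed 3 of the 14 rose, the acyl-CoA synthetase genes Acsl1 (0.46, edgeR adjusted p = 0.0387), Acsl4 (0.56, 0.00769) and Acsl5 (0.31, 0.0297), named here after their values were seen. Of 2 tested further binding proteins it called 0, with 1 at an unadjusted p under 0.05 and 0 called by DESeq2.

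Among the factors, Ppargc1a, a coactivator of PPAR gamma and of mitochondrial genes, fell from 3.52 ± 0.83 to 0.784 ± 0.14 CPM (means ± SD, n = 2 each; log2 fold change -2.13 ± 0.32, edgeR adjusted p = 0.00432). Meox2, a homeobox factor of heart and muscle endothelium, fell from 11.2 ± 1.1 to 2.84 ± 0.86 CPM (-1.98 ± 0.25, edgeR adjusted p = 0.00219). Its level lay in the smaller subtypes, where it fell from 42.8 to 13.3 CPM in arterial-like cells (edgeR adjusted p = 0.000424) and from 40.5 to 5.44 CPM in venous-like cells (0.000621). In capillary-like cells Meox2 was at 0.518 and 0.667 CPM in homeostasis and after deligation and was not tested, and mural-like cells held more of it, 188 and 91.6 CPM. Cebpa, a factor of fat cell differentiation, was at 9.84 ± 3.0 against 5.13 ± 0.94 CPM (0.95 ± 0.24, edgeR adjusted p = 0.0254). With the intron trend removed the values were -1.59, -1.64 and 0.71, and Cebpa no longer passed (edgeR adjusted p = 0.0683).

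Of 10 tested genes of triglyceride breakdown and its control 3 rose and 1 fell, and of 9 storage genes 1 rose and 2 fell. Among all tested genes 34.7% were called. With the intron trend removed the counts were 4 and 0, and 2 and 2, where 3989 of 13277 genes were called. Pnpla2, the first lipase of stored triglyceride, rose by 0.51 ± 0.08 on the log2 scale (edgeR adjusted p = 0.00455), and Lmf2, a relative of the lipase maturation factor, by 0.57 ± 0.08 (0.00332). G0s2, an inhibitor of the Pnpla2 product, fell from 21.2 ± 1.6 to 1.75 ± 2.2 CPM (-3.52 ± 0.62, 0.00710). Mgll, which splits monoglycerides, fell by 0.46 ± 0.09 (0.0103), but the value was 0.04 with the intron trend removed. Plin2, a lipid droplet coat protein, rose by 0.37 ± 0.08 (0.0167), while Agpat2, an enzyme of glycerolipid synthesis, fell by 1.00 ± 0.31 (0.0475). Of the transport list, Slc27a3 and Got2 rose, by 0.53 ± 0.09 (0.00728) and 0.29 ± 0.09 (0.0461).

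Values of other transcripts moved with the groups in the same cells. Early response genes took 0.611% and 0.773% of the UMIs of deligated capillary-like cells and 0.345% and 0.335% of homeostatic ones. Secreted salivary products took 0.00378% and 0.00497% against 0.115% and 0.127%. Their part in the changes above was not tested. Leaving out the 2 capillary-like subclusters of almost wholly homeostatic cells, a check added after seeing the data, left the same 4 genes called, Pparg, Fabp5, Fabp4 and Lpl, where 31.5% of all genes were.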

How the data were processed

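Single-cell libraries of 4 stroma-enriched glands' suspensions were analysed, 2 deligated and 2 homeostatic. The deposited files hold UMI counts of each gene in each barcode, without normalization. Per the file headers these counts were made with Cell Ranger 6.0.1 (deligated) and 7.0.0 (homeostatic), while the submitters' processing notes name Cell Ranger 6.0.1, Seurat and mm10 for every library. Whether intronic reads were counted is not given in the sources used here. Of 31053 gene identifiers, 99.6% matched GENCODE M21 (GRCm38), the source of coordinates and intron lengths. Promoter sequences are from RefSeq.

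Cells were kept with at least 300 genes and at most 10% mitochondrial UMIs. Doublets were scored against simulated ones, and the top 0.8% per 1000 cells were removed. After 30 principal components of 3000 variable genes, without the 7 genes, a graph of 20 neighbours was clustered with leidenalg 0.10.2 at resolution 1.0. Classes were named from at least 3 markers at 2.0-fold over other cells. Endothelial subtypes were named from at least 3 markers at 1.5-fold over other endothelial cells, or, for capillary-like cells, over arterial-like and venous-like ones. The naming rules were set with the clusters in view.

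UMI counts were summed per class or subtype and library, and those with at least 100 cells in every library were tested with edgeR 4.0.16 (TMM, filterByExpr, quasi-likelihood, Benjamini-Hochberg over all tested genes, threshold 0.05). With 2 libraries a group, a permutation p is at least 0.333, so none was computed. Differences between classes or subtypes were tested as an interaction with the library as a block. The fits were also run on simulated counts with known changes, and the outcome is not reported here. DESeq2 1.42.0 was an alternative, beside other scaling, filters, thinning, clustering, doublet handling and an intron-length correction.

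The 7 genes are always named. Of each pathway list the up to 3 called genes with the largest change in endothelial-like cells are named, and for each gene the 3 most alike by Pearson's r of log2(CPM + 1). For Lpl the latter are not reported here. Genes and lists were chosen with earlier results of these data known. Counting error alone is covered by the depth given, and depth differed between the groups.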

Additional observations from a re-analysis of the deposited data

Results flagged for a closer look

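The change of Gpihbp1 after deligation differed between capillary-like and venous-like cells by 0.66 on the log2 scale in the edgeR test of the difference itself (adjusted p = 0.000165), from 0.02 in capillary-like and 0.68 in venous-like cells. It lay between 0.43 and 0.79 when each library was left out in turn, and the call was lost without homeostatic replicate 1 (0.60, adjusted p = 0.359) and without homeostatic replicate 2 (0.75, 0.0983). At 1000 UMIs a cell it was not called either, where 0.0226% of all genes were, against 0.46% with all UMIs. The part of the unequal mix of venous-like subclusters 6 and 11 in it was not tested.

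Cells outside every comparison held high levels of Fabp4 and Rbp7. A cluster of 1094 cells stayed unnamed because only 1 endothelial marker, Egfl7, passed the marker rule in it. It was led by Rbp7, Grik1, Bvht and Fabp4, and its median was 806 UMIs a cell. It held 27 and 31 cells in the deligated and 471 and 565 cells in the homeostatic libraries. In the homeostatic libraries its mean level was 10990 CPM for Fabp4 and 2852 CPM for Rbp7, above the NK/innate lymphoid-like cells of the same libraries. Joined to the endothelial-like class, a check added after seeing the data, it left Lpl, Fabp5, Pparg and also Fabp4 called there, where 34.2% of all genes were called, against 34.7% without it.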

How the results depend on the processing

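Of 825 values recomputed under alternatives, 610 kept direction and side of the threshold, 40 lost a call, 54 gained one, 96 moved and 25 changed sign. The cause of these shifts was not tested. Pparg in endothelial-like (-1.08 to -0.40) and capillary-like cells (-1.12 to -0.43) and Lpl in fibroblast-like cells (0.76 to 1.11) passed in every alternative run. Pparg in fibroblast-like cells passed in its 13 alternatives (-2.27 to -1.19).

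Depth limits Lpl in endothelial-like cells (25 to 163 UMIs a library) and Pparg in fibroblast-like cells (18 to 47 UMIs). Each group has 2 libraries, and leaving 1 out assumes that the lone library varies like the other group.

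After each count of called genes below, the share of all genes called in the same fit stands in parentheses, and the counts are not read as results about the 7 genes. With DESeq2's test the called genes of the 7 were 0 in NK/innate lymphoid-like (20.6%) and 0 in arterial-like cells (6.31%), and 5 pathway genes were higher in endothelial-like cells (19.9%). With no filter on low counts they were 4 in T cell-like (18.6%), 4 in arterial-like (13.2%), 2 in capillary-like (16.6%) and 5 in venous-like cells (12.1%). The genes whose change differed were then 1 for arterial-like against venous-like (0.529%), 1 for endothelial-like against NK/innate lymphoid-like (5.27%), 2 against T cell-like (3.35%) and 2 against mural-like cells (1.41%). With the stricter cell filter 3 were called in NK/innate lymphoid-like (42%), 2 in arterial-like (17%) and 5 in venous-like cells (14%). The change then differed for 2 genes between capillary-like and venous-like cells (0.876%) and for 2 between endothelial-like and NK/innate lymphoid-like cells (6.49%). The log2 ratios of capillary-like to venous-like level were then -0.25 for Fabp4, 0.78 for Lpl and 1.27 for Rbp7.

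Thinned to 1000 UMIs a cell, 0 were called in NK/innate lymphoid-like (27.8%), arterial-like (9.42%) and mural-like cells (7.57%), and 1 in fibroblast-like cells (17.4%). The change differed for 0 between capillary-like and venous-like cells (0.0226%) and for 1 between endothelial-like and T cell-like cells (0.889%), and 4 pathway genes were higher (23.7%). The ratio to venous-like level was -0.35 for Lpl and 1.48 for Rbp7, that to arterial-like level -0.50 for Pparg, and mural-like Lpl changed by 0.013. With doublet-scored cells kept, 3 were called in NK/innate lymphoid-like (44.2%), 2 in arterial-like (16.9%), 3 in mural-like (8.93%) and 7 in fibroblast-like cells (26.2%). The change differed for 2 between endothelial-like and fibroblast-like (4.52%) and for 1 between endothelial-like and mural-like cells (0.633%). Fibroblast-like Fabp4, Gpihbp1 and Rbp7 were then at -1.20, -1.11 and -1.05, and mural-like Fabp5, Lpl and Rbp7 at -0.078, 0.079 and -0.77.

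At resolution 2.0, 2 were called in NK/innate lymphoid-like (40.4%) and 1 in T cell-like cells (29.7%). The ratios to arterial-like level were -1.02 for Cd36, 0.72 for Fabp5, 0.52 for Gpihbp1 and 0.10 for Rbp7, those to venous-like level -0.086 for Fabp4, 1.19 for Lpl and 1.48 for Rbp7, and capillary-like Gpihbp1 changed by -0.040. With the 7 genes kept for clustering, 2 were called in arterial-like cells (16.3%), and the ratios to venous-like level were 0.51 for Lpl and 1.46 for Rbp7. With the intron trend removed, 0 were called in NK/innate lymphoid-like (29.6%), 2 in arterial-like (10.6%) and 0 in mural-like cells (4.84%), 2 differed between capillary-like and venous-like cells (0.469%), and 4 pathway genes were lower (30%). Cd36 was then at 0.025, 0.32, 0.17 and 0.051 in arterial-like, capillary-like, endothelial-like and mural-like cells, Gpihbp1 at -0.016, -0.16 and -0.097 in the first 3, and mural-like Fabp5 at -0.028. The share of higher calls over all genes in endothelial-like cells went from 35.9% to 49.2%.

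Leaving out each library in turn gave 1 to 7 called in endothelial-like cells (13.1% to 55.6%), 2 to 6 in the capillary-like (16.6% to 49.1%), 0 to 4 in the arterial-like (8.25% to 22.9%) and 0 to 5 in the venous-like subtype (4.78% to 24.2%). The range was 2 to 5 in fibroblast-like (11% to 42.2%), 0 to 3 in mural-like (2.78% to 13.4%), 0 to 4 in T cell-like (9.75% to 35.9%) and 0 to 2 in NK/innate lymphoid-like cells (18.3% to 47.9%). The genes whose change differed were 0 to 1 for arterial-like against capillary-like (0.524% to 1.99%) and against venous-like (0.349% to 1.1%) and 0 to 2 for capillary-like against venous-like (0.0561% to 1.26%). Against endothelial-like they were 0 to 1 for NK/innate lymphoid-like (0.825% to 4.97%), 0 to 2 for T cell-like (0.05% to 5.48%), 0 to 4 for fibroblast-like (1.9% to 7.13%) and 0 to 3 for mural-like cells (0.255% to 2.01%). Pathway genes were 0 to 23 higher and 2 to 14 lower (13.1% to 55.6%). Sign changes occurred for fibroblast-like Fabp4 (-1.44 to 1.52) and Rbp7 (-0.54 to 1.22), mural-like Fabp5 (-0.16 to 0.30) and Lpl (-0.13 to 0.045), capillary-like and endothelial-like Gpihbp1 (-0.15 to 0.19 and -0.11 to 0.27) and arterial-like Rbp7 (-0.33 to 0.035).

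The replicate numbers are shared by the groups but are not said to mark a common animal or day, and deviations of same-numbered libraries correlated between -0.31 and 0.02. With the replicate number as a block 0 of the 7 genes were called in NK/innate lymphoid-like (32.3%), 2 in endothelial-like (27.1%), 3 in capillary-like (33.5%), 4 in venous-like (13%), 1 in arterial-like (15.2%), 1 in mural-like (10.3%), 0 in T cell-like (24.6%) and 2 in fibroblast-like cells (29.5%). Venous-like cells with doublets kept and mural-like cells under the stricter filter fell under 100 cells in a library and were not run, nor were the tests of differences that need them.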
